A study of Bos taurus with 6 samples.

Results

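Extracellular vesicles (EVs), the membrane particles that cells release, were collected from cultured bovine granulosa cells, the somatic cells that line the ovarian follicle, precipitated from the spent medium with ExoQuick-TC, and their miRNAs were sequenced. The miRNAs described here are 7 that p53, senescence or hypoxia are known to induce: bta-miR-34a, bta-miR-34b, bta-miR-34c, bta-miR-449a, both arms of miR-22 (bta-miR-22-3p and bta-miR-22-5p) and bta-miR-210. They were chosen by name, and all 7 were among the 512 miRNAs that each library listed. The cells came from small antral follicles of slaughterhouse ovaries and were grown in medium with exosome-depleted fetal bovine serum. The control group (control-EVs) is EVs from cells kept at 37 °C, and the heat-stressed group (HS-EVs) is EVs from cells moved to 42 °C for 24 h, with 3 libraries in each group. Both groups came from primary cells without any genetic change, and neither the breed nor the age of the animals nor the number of animals behind a library is given in the sources used here. The study describes the libraries as biological triplicates, and the labels number them as replicates without tying each to an animal or culture, so that p-values measure the spread between these libraries.

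The tumour suppressor p53, which damaged DNA and other stresses activate, switches on the genes of miR-34a and of miR-34b and miR-34c. These miRNAs lower the proteins that drive the cell cycle and those that block apoptosis, and miR-449a belongs to the same family and has an overlapping set of targets. miR-22 accumulates in senescent cells, and miR-210 is the miRNA most regularly raised by hypoxia-inducible factor when oxygen is low. Whether heat at 42 °C raised them in EVs was the question put to the data.

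The deposited values correspond to between 274434 and 2360980 recovered reads in a library, and bta-miR-1246 alone took 59.9% to 98.6% of them, so that 34141 to 235634 reads were left for all other miRNAs. In every library the recovered total is above the number of reads that the study lists as mapped to annotated miRNAs. The reason for the gap was not tested, and if a recovered read is less than 1 independent read, the intervals given below are too narrow. HS-EVs replicate 1 stood apart, with the most reads in all and the fewest outside bta-miR-1246, and the results that it moves most are also given without it. The values are read counts that the authors had scaled by TMM (trimmed mean of M-values), called normalized counts here. In the same libraries a single read was worth 0.697 to 4.11 normalized counts, and the reads behind a value could be recovered from it. Of 6 granulosa-linked miRNAs, 4 were detected in both groups, and these included bta-miR-202, a gonadal miRNA, which averaged 1839 ± 151 normalized counts (SD, n = 3) at 37 °C and 1525 ± 538 (SD, n = 3) at 42 °C, whereas bta-miR-383 and bta-miR-212 never had more than 1 read in a library.

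Heat-stressed cells released EVs in which the 4 abundant members, bta-miR-34a, bta-miR-449a, bta-miR-22-3p and bta-miR-210, had higher mean normalized counts than in control-EVs, by 1.36 to 1.77 times, but none of the differences passed the test. On reads scaled by all reads of a library all 4 turned to below 0, and the median log2 fold change of all 512 miRNAs moved with them, from 0.01 to -0.79. Only for bta-miR-22-3p did all HS-EVs libraries lie above all control-EVs libraries. The other 3 members, bta-miR-34b, bta-miR-34c and bta-miR-22-5p, had between 2 and 15 reads in all 6 libraries together. The study took a miRNA as detected when its normalized count reached 10 in 2 or more libraries of a group. By this criterion the same 4 members were detected in control-EVs and in HS-EVs, where 37.9% of the 512 miRNAs were detected in control-EVs and 36.7% in HS-EVs.

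**Figure D1:**
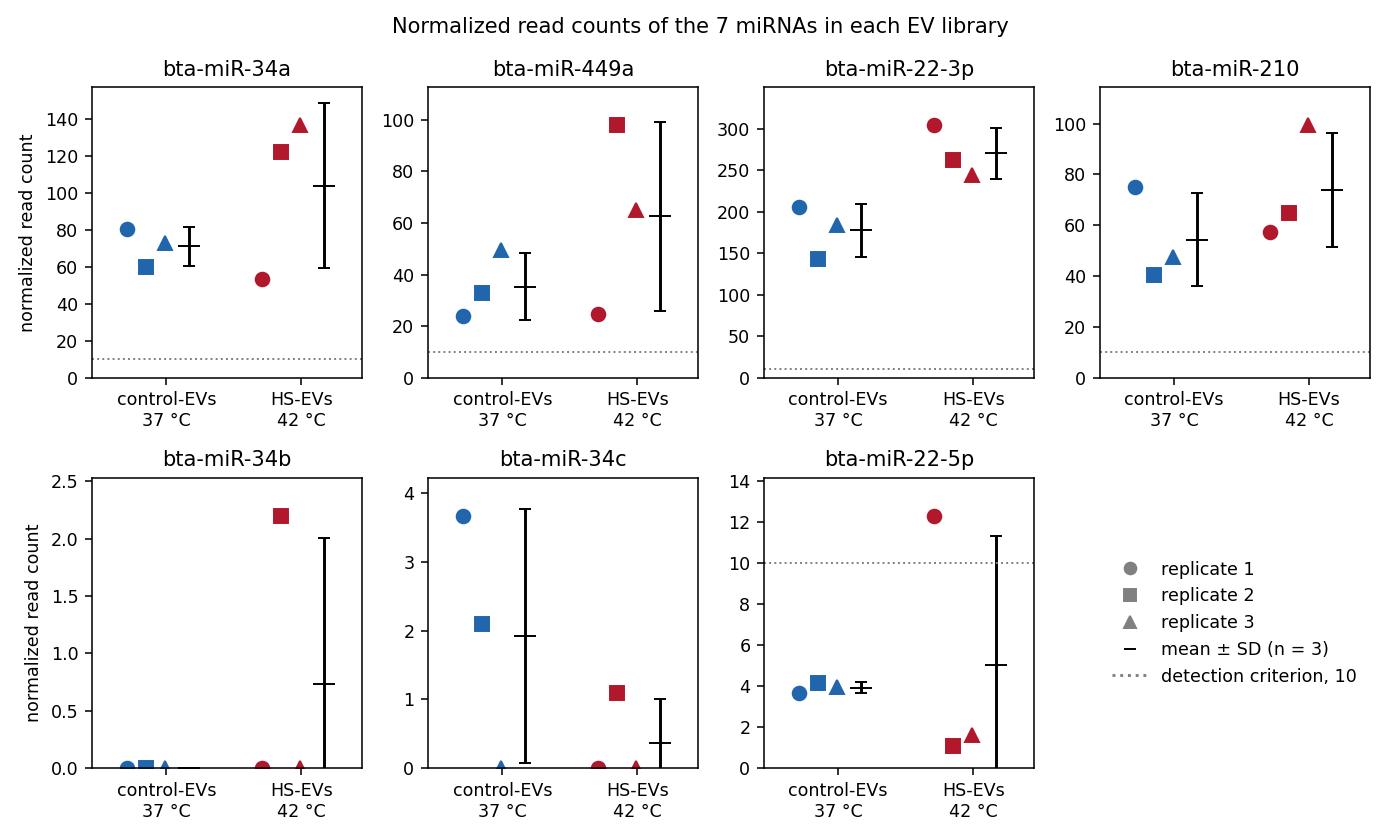
Normalized read count (vertical axis, each panel from 0 with its own range) of each of the 7 miRNAs in the 3 control-EVs libraries (blue) and the 3 HS-EVs libraries (red); symbols mark the replicate number, black bars the mean ± SD (n = 3, cut off at 0) and the dotted line the detection criterion of 10. All 3 HS-EVs libraries of bta-miR-22-3p, at 244 to 304, lie above the control-EVs libraries at 143 to 206, while in bta-miR-34a HS-EVs replicate 1, at 53.4, lies below every control-EVs library. Of the 512 miRNAs, 3.71% were higher in HS-EVs without overlap.

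bta-miR-34a, the best-studied p53 target among miRNAs, had normalized counts of 80.8, 60.0 and 73.1 in control-EVs replicates 1 to 3, from 44, 86 and 37 reads. In HS-EVs it had 53.4, 122 and 137, from 13, 111 and 84 reads. Replicates 2 and 3 of HS-EVs thus lay above every control-EVs library and replicate 1, under this TMM scaling, below all of them, so that the groups overlapped. Control-EVs averaged 71.3 ± 10.5 (SD, n = 3) and HS-EVs 104 ± 44.6 (SD, n = 3). In limma's test over all 512 miRNAs on log2(normalized count + 1), the difference was 0.44 with a standard error of 0.50 (adjusted p = 0.873) and a 95% interval of -0.68 to 1.56, or a fold between 0.626 and 2.94. Per 10000 reads outside bta-miR-1246, bta-miR-34a took 3.81 in HS-EVs replicate 1 (95% Wilson interval 2.23 to 6.51), against 8.99 (7.47 to 10.8) in HS-EVs replicate 2 and 9.69 (7.83 to 12.0) in replicate 3. Control-EVs took 5.74, 3.65 and 5.03 on this scale, so that HS-EVs replicate 1 lay just above control-EVs replicate 2 there. Without HS-EVs replicate 1 the log2 fold change was 0.86 (adjusted p = 0.680 from limma), without HS-EVs replicate 2 it was 0.27 (adjusted p = 0.832 from limma) and without HS-EVs replicate 3 it was 0.19 (adjusted p = 0.944 from limma).

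bta-miR-449a, better known from multiciliated epithelia such as the oviduct, was next in the family, with 23.9, 32.8 and 49.4 normalized counts in control-EVs (13, 47 and 25 reads). In HS-EVs it had 24.7, 97.9 and 65.2 normalized counts (6, 89 and 40 reads). HS-EVs replicates 2 and 3 lay above every control-EVs library and replicate 1 above only the lowest of them, so that the groups overlapped. Control-EVs averaged 35.3 ± 13.0 (SD, n = 3) and HS-EVs 62.6 ± 36.7 (SD, n = 3). limma gave a log2 fold change of 0.66 with a standard error of 0.58 (adjusted p = 0.873, 95% interval -0.64 to 1.97). Without HS-EVs replicate 1 it was 1.22 (adjusted p = 0.614 from limma), and without HS-EVs replicate 2 it was 0.24 (adjusted p = 0.905 from limma).

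The remaining members of the family were close to absent. bta-miR-34b had 0 reads in 5 libraries and 2 reads in HS-EVs replicate 2. A count of 0 allows up to 3 reads, which is 2.09 to 5.93 normalized counts in the control-EVs libraries and 12.3 in HS-EVs replicate 1, so that at this depth even a level above the detection criterion could have been missed in HS-EVs replicate 1. bta-miR-34c had 2, 3 and 0 reads in control-EVs and 0, 1 and 0 in HS-EVs. Both lay at or under the limit of 3 reads in every library, and neither a fold change nor the planned ratio of bta-miR-34c to bta-miR-34a is given, since at such counts the reads added for the ratio would set it. By the RefSeq genes of ARS-UCD2.0, a later assembly than the authors used, MIR34B and MIR34C lie beside each other and overlap BTG4 and HOATZ, MIR34A lies apart from them and overlaps GPR157, and MIR449A lies with MIR449B and MIR449C inside CDC20B.

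Over all libraries, 615 reads fell on the 7 listed miRNAs of the miR-34 and miR-449 family, of which bta-miR-34a took 61.0% (95% Wilson interval 57.1% to 64.8%) and bta-miR-449a 35.8% (32.1% to 39.6%). These intervals pool the reads and leave out the spread between libraries. The share of bta-miR-34a ran from 53.9% in HS-EVs replicate 2 to 73.3% in control-EVs replicate 1. Clustered genes did not mean like counts, as bta-miR-449b and bta-miR-449c, whose genes adjoin that of bta-miR-449a, had 6 and 5 reads, and bta-miR-449d had 1. In control-EVs the share of bta-miR-449a was 32.1% of 265 reads (26.7% to 37.9%), in HS-EVs 38.6% of 350 reads (33.6% to 43.8%). These intervals overlapped, but they cover counting error only and are no test of the groups. By library, bta-miR-449a had 0.295, 0.547 and 0.676 reads per read of bta-miR-34a in control-EVs and 0.462, 0.802 and 0.476 in HS-EVs, with the groups interleaved. How the authors' mapping shared reads among the members of this family is not given in the sources used here.

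bta-miR-22-3p, the main arm of miR-22, was the most abundant member, ranking 65 of 512 by mean normalized count, ahead of bta-miR-34a at 97, bta-miR-210 at 117 and bta-miR-449a at 128. Its normalized counts were 206, 143 and 184 in control-EVs (112, 205 and 93 reads) and 304, 262 and 244 in HS-EVs (74, 238 and 150 reads). The groups did not overlap, the lowest HS-EVs library lying above the highest control-EVs library. Over all 512 miRNAs, 3.71% had groups that did not overlap with HS-EVs higher, and 6.45% in either direction. Control-EVs averaged 177 ± 31.8 (SD, n = 3) and HS-EVs 270 ± 30.6 (SD, n = 3). By limma the log2 fold change was 0.61 with a standard error of 0.43 (adjusted p = 0.873) and a 95% interval of -0.34 to 1.57, or a fold between 0.788 and 2.97. It stayed between 0.47 and 0.73 when single libraries were left out under the TMM scaling. On reads scaled by all reads it was -0.90, with the median of all 512 miRNAs at -0.79.

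bta-miR-22-5p, the other arm of the same hairpin, had 2, 6 and 2 reads in control-EVs and 3, 1 and 1 in HS-EVs. Its normalized counts were 3.67, 4.18 and 3.95 in control-EVs and 12.3, 1.10 and 1.63 in HS-EVs, the high value of HS-EVs replicate 1 being 3 reads in the library where a read is worth most. Control-EVs averaged 3.94 ± 0.26 (SD, n = 3) and HS-EVs 5.02 ± 6.33 (SD, n = 3), so that the mean was 1.28 times higher in HS-EVs, whereas limma's log2 fold change was -0.23 with a standard error of 0.68 (adjusted p = 0.952). By limma it was -1.07 (adjusted p = 0.580) without HS-EVs replicate 1, and it turned to 0.26 without HS-EVs replicate 2 and to 0.10 without HS-EVs replicate 3, so that no direction is given. Each library had far more of the 3p arm, with 56.0, 34.2 and 46.5 reads of bta-miR-22-3p per read of bta-miR-22-5p in control-EVs and 24.7, 238 and 150 in HS-EVs. HS-EVs replicate 1 had the lowest ratio and the other 2 HS-EVs libraries the highest. On the log2 scale, with 0.5 reads added, the ratio averaged 5.23 ± 0.25 (SD, n = 3) at 37 °C and 6.12 ± 1.52 (SD, n = 3) at 42 °C (exact permutation test, two-sided, p = 0.4, where 0.1 is the lowest p that 3 and 3 libraries can give). The difference of 0.89 became 1.75 without HS-EVs replicate 1 and 0.30 without HS-EVs replicate 2. In the same annotation MIR22 overlaps TLCD2 and a further miRNA gene, MIR3600, which was not analysed here.

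bta-miR-210, the hypoxia miRNA, which lowers iron-sulfur cluster assembly and mitochondrial respiration, had 75.3, 40.4 and 47.4 normalized counts in control-EVs, from 41, 58 and 24 reads. In HS-EVs it had 57.5, 64.9 and 99.4, from 14, 59 and 61 reads. Control-EVs replicate 1 lay above 2 of the 3 HS-EVs libraries, and the other control-EVs libraries below all of them. Control-EVs averaged 54.4 ± 18.4 (SD, n = 3) and HS-EVs 73.9 ± 22.4 (SD, n = 3). The limma fit put the log2 fold change at 0.45 with a standard error of 0.47 (adjusted p = 0.873, 95% interval -0.61 to 1.50). Without control-EVs replicate 1 it was 0.70 (adjusted p = 0.635 from limma), and without HS-EVs replicate 3 it was 0.22 (adjusted p = 0.916 from limma). Relative to bta-miR-22-3p within a library, a comparison that no scaling can change, bta-miR-210 had 36.6, 28.3 and 25.8 reads per 100 in control-EVs and 18.9, 24.8 and 40.7 in HS-EVs. The mean log2 difference of this ratio was -0.16 (exact permutation test, two-sided, p = 0.7), and it turned to 0.08 without HS-EVs replicate 1.

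**Figure D2:**
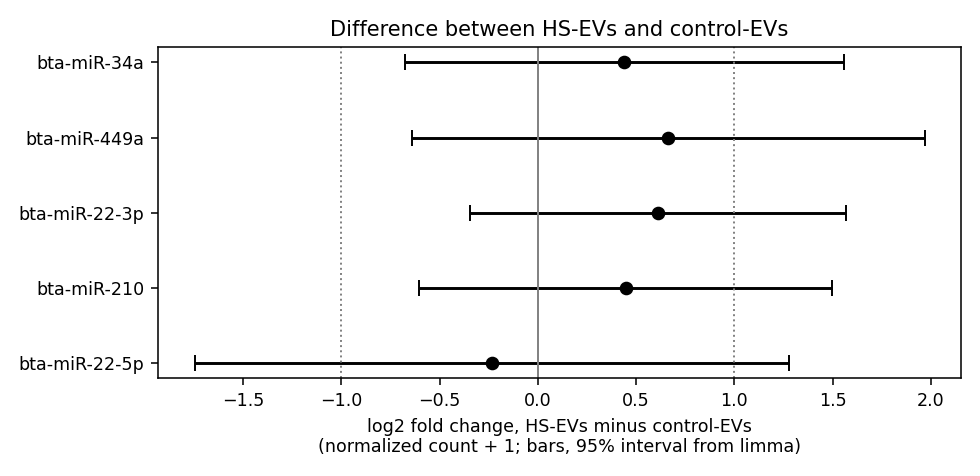
Log2 fold change of HS-EVs minus control-EVs (horizontal axis, on log2 of the normalized count + 1) for 5 of the 7 miRNAs, with points at the limma estimate, bars for its 95% interval and dotted lines at the study's threshold of 1 in either direction; bta-miR-34b and bta-miR-34c, at or under 3 reads in every library, are not drawn. Each interval includes 0, and the estimates of the 4 detected members run from 0.44 to 0.66 under this TMM scaling, while on reads scaled by all reads they run from -1.01 to -0.72, with the median of all 512 miRNAs at -0.79.

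For EVs the study asked for an adjusted p-value up to 0.3 and a log2 fold change of at least 1 in either direction. In limma's test 0 of the 7 members passed this threshold, as did 0% of the 512 miRNAs. The study tested with edgeR instead and reported miRNAs enriched in HS-EVs, bta-miR-1246 among them and no member. At an unadjusted p-value of 0.05 or less, limma found 0 of the 7 members, with 4.88% of the 512. On the recovered reads, edgeR's quasi-likelihood test called 0 of the 7 members, with 0.586% of the 512 miRNAs, and DESeq2 called 0, with 0% of the 510 that it tested. At an unadjusted p-value of 0.05 or less, edgeR found 1 member, bta-miR-449a (unadjusted p = 0.0369, adjusted p = 0.756, log2 fold change 0.90), with 5.08% of the 512, and DESeq2 found 0, with 1.96% of the 510. In limma's alternatives 0 to 2 members reached this level. bta-miR-22-3p, higher in HS-EVs, did so at a pseudocount of 5, with 5.86% of the 512, and without control-EVs replicate 1 (8.4%), control-EVs replicate 2 (4.3%) or HS-EVs replicate 3 (3.91%). bta-miR-34c, with at most 3 reads in a library, did so without control-EVs replicate 3 (4.49%) and was lower in HS-EVs. Without HS-EVs replicate 1 (6.84%), bta-miR-449a did so with HS-EVs higher. bta-miR-22-5p also did so there, but with HS-EVs lower (log2 fold change -1.07). On reads scaled by all reads without HS-EVs replicate 1 (4.49%), bta-miR-22-5p did so and was again lower in HS-EVs (-1.43). The upper ends of the 95% intervals lay between 1.50 and 1.97 for the 4 detected members, so that a rise past the threshold of 1 was within what these libraries allow.

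The log2 fold change of the 4 detected members was above 0 under the TMM scaling, as it was for 50% of the 512 miRNAs and for 50.5% of the 196 with a mean normalized count of 10 or more, but below 0 on reads scaled by all reads of a library. There the values were -1.01 for bta-miR-34a, -0.72 for bta-miR-449a, -0.90 for bta-miR-22-3p and -1.01 for bta-miR-210. This scaling moved the median of all 512 miRNAs from 0.01 to -0.79, so that, relative to the median, the members stood at -0.22, 0.07, -0.11 and -0.22, against 0.43, 0.66, 0.61 and 0.44 under the TMM scaling. On reads scaled by all reads and without HS-EVs replicate 1, where bta-miR-1246 took 98.6% of the reads, the 4 values were 0.59, 0.95, 0.25 and 0.34, with the median at -0.20. The members thus stood above the median of all miRNAs in each setting plotted except scaling by all reads, where only bta-miR-449a did.

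**Figure D3:**
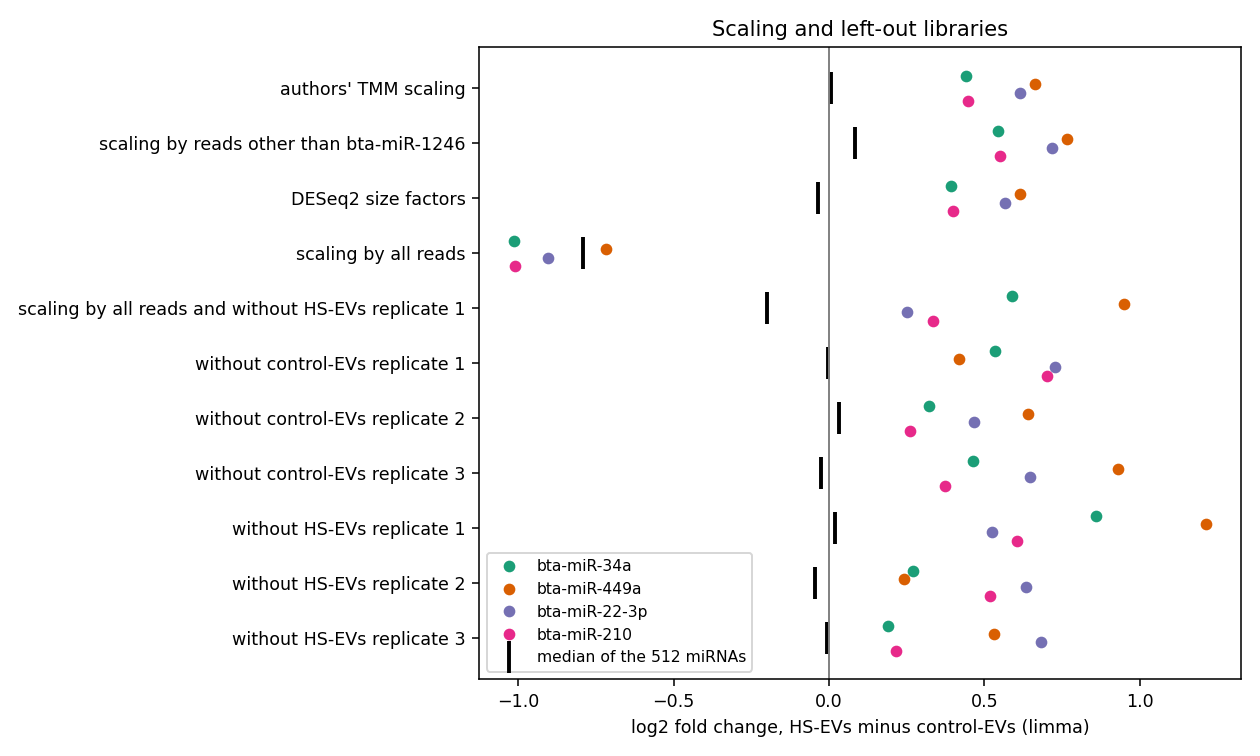
Log2 fold change of HS-EVs minus control-EVs from limma (horizontal axis) of the 4 detected miRNAs under each scaling and with each library left out, with a black tick at the median of all 512 miRNAs. Scaling by all reads puts all 4 between -1.01 and -0.72 and the median at -0.79, and leaving out HS-EVs replicate 1 returns them to 0.25 to 0.95.

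Counting each member against another miRNA of the same library does not depend on the scaling, but it depends on the miRNA chosen as reference. Any fall of the reference in HS-EVs raises every ratio to it. bta-miR-361, the miRNA that served the study as reference in its digital PCR, had 355, 1411 and 335 reads in control-EVs and 117, 651 and 302 in HS-EVs, and limma gave it a log2 fold change of -0.44 with a standard error of 0.45 (adjusted p = 0.873). For every 100 reads of it there were 31.5, 14.5 and 27.8 reads of bta-miR-22-3p in control-EVs and 63.2, 36.6 and 49.7 in HS-EVs, without overlap. Relative to bta-miR-361, 15.7% of the 511 other miRNAs were higher in HS-EVs without overlap, and 9.09% of the 176 with 10 or more reads in at least 3 libraries. On the log2 scale with 0.5 reads added, the ratio of bta-miR-22-3p to bta-miR-361 averaged -2.09 ± 0.60 (SD, n = 3) at 37 °C and -1.04 ± 0.40 (SD, n = 3) at 42 °C. The difference of 1.06 reached p = 0.1 in a two-sided exact permutation test, which is the lowest possible p here. The same difference was 1.13 for bta-miR-449a, 0.90 for bta-miR-210 and 0.89 for bta-miR-34a, with overlapping groups (exact permutation tests, two-sided, p = 0.2 each). Without HS-EVs replicate 1 the differences were 0.87 for bta-miR-22-3p, 1.56 for bta-miR-449a, 0.95 for bta-miR-210 and 1.20 for bta-miR-34a, and the lowest values with any single library left out were 0.71, 0.90, 0.51 and 0.56 in the same order. These 4 comparisons share the reads of bta-miR-361, and their p-values are not adjusted.

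**Figure D4:**
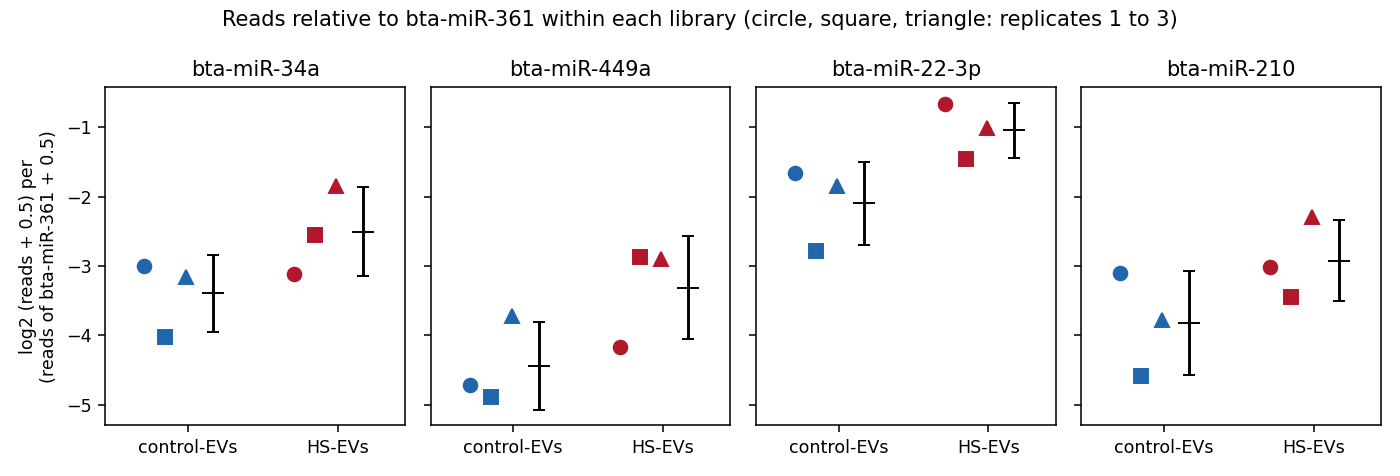
Log2 of (reads + 0.5) of each detected member over (reads + 0.5) of bta-miR-361 in the same library (vertical axis), for control-EVs (blue) and HS-EVs (red), with black bars for the mean ± SD (n = 3). Only for bta-miR-22-3p do all 3 HS-EVs libraries, -1.45 to -0.66, lie above the control-EVs libraries, -2.78 to -1.66. Relative to bta-miR-361, 15.7% of the 511 other miRNAs were higher in HS-EVs in this way.

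How far bta-miR-22-3p varied together with the other 3 detected members depended on HS-EVs replicate 1, the HS-EVs library with the most bta-miR-22-3p and the least of the other 3, whereas the correlations among those 3 moved little without it. Over the 6 libraries, on log2(normalized count + 1), bta-miR-34a correlated with bta-miR-449a (Pearson's r 0.80, Spearman's rho 0.60), with bta-miR-210 (r 0.74, rho 0.77) and with bta-miR-22-3p (r 0.28, rho 0.09). bta-miR-22-3p correlated with bta-miR-210 (r 0.57, rho 0.49) and with bta-miR-449a (r 0.18, rho 0.14), and bta-miR-449a with bta-miR-210 (r 0.26, rho 0.14). Over the 5 libraries other than HS-EVs replicate 1, r rose to 0.94 between bta-miR-22-3p and bta-miR-34a, 0.67 between bta-miR-22-3p and bta-miR-449a and 0.80 between bta-miR-22-3p and bta-miR-210, and was 0.74, 0.84 and 0.25 for bta-miR-34a with bta-miR-449a, bta-miR-34a with bta-miR-210 and bta-miR-449a with bta-miR-210. Among the 195 other miRNAs with a mean normalized count of 10 or more, the patterns most like that of bta-miR-34a were those of bta-miR-125a (r 0.98), bta-miR-31 (0.93) and bta-miR-191 (0.92). For bta-miR-449a they were bta-miR-186 (0.97), bta-miR-6523a (0.89) and bta-miR-146a (0.89), for bta-miR-22-3p they were bta-miR-23b-3p (0.93), bta-miR-29b (0.88) and bta-miR-2904 (0.87), and for bta-miR-210 they were bta-miR-26a (0.98), bta-miR-342 (0.95) and bta-miR-221 (0.95). Without HS-EVs replicate 1, r for these 12 ran from 0.859 to 0.999. All these are descriptions over 6 libraries that share their scaling.

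Other miRNAs tied to the same stresses did not pass the threshold either, but 0% of all 512 miRNAs passed it in limma's test. The counts of 0 below are thus not particular to these lists. Of 10 further p53-linked miRNAs, 9 were listed, 0 passed, and the median log2 fold change was -0.07, beside 0.01 for all 512. These include bta-miR-145, a smooth muscle and stromal miRNA that p53 induces, at -0.89 (adjusted p = 0.873 from limma), and bta-miR-107, which also responds to hypoxia, at 0.46 (adjusted p = 0.873 from limma). Of 11 hypoxia-linked miRNAs, 10 were listed and 0 passed, with a median of 0.15 and the highest values in bta-miR-26b (0.89) and bta-miR-26a (0.89). Of 6 senescence-linked miRNAs, 5 were listed and 0 passed, with a median of 0.35, and bta-miR-29b was the only miRNA of the 3 lists whose groups did not overlap, where 6.45% of the 512 did not. It had 25.8 to 44.1 normalized counts in control-EVs and 67.1 to 116 in HS-EVs, with the highest log2 fold change of the 3 lists, 1.25 (adjusted p = 0.870 from limma). The median of the 7 members themselves was 0.45, which includes bta-miR-34b, bta-miR-34c and bta-miR-22-5p with at most 6 reads in a library. That of the 4 with a mean normalized count of 10 or more was 0.53, beside 0.02 for the 196 miRNAs at that level.

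Markers of other sources were read beside these results, since the serum in the medium is bovine too and its miRNAs carry the same names. bta-miR-122, a liver miRNA of serum, had 12232 to 25400 normalized counts in control-EVs and 7524 to 13633 in HS-EVs, which is far above any member in each library, and its log2 fold change was -0.91 (adjusted p = 0.873 from limma). The 7 blood cell miRNAs, led by bta-miR-486, summed to 834 to 1623 in control-EVs and to 590 to 1101 in HS-EVs. Their median log2 fold change was -0.19, and 2 of the 7 were above 0, among them bta-miR-150 (0.91), whose HS-EVs libraries all lay above the control-EVs libraries, as did those of 3.71% of the 512 miRNAs. The 5 epithelial miRNAs of the miR-200 family summed to at most 17.6 normalized counts in a library and the 3 other miR-449 members to at most 4.18, with bta-miR-449d at 0 in 5 libraries. bta-miR-429, an epithelial miRNA with at most 3 reads in a library, had 1.84 to 2.09 normalized counts in control-EVs and 0 to 1.10 in HS-EVs, without overlap, where 2.73% of the 512 miRNAs were lower in HS-EVs without overlap. None of the epithelial and miR-449 miRNAs had a mean normalized count of 10 or more, and no median is given for them. In the 4 granulosa-linked miRNAs at that level the median log2 fold change was -0.14, with 1 of the 4 above 0. Over all 6, which include bta-miR-383 and bta-miR-212 with at most 1 read in a library, it was 0.15. What part serum or other cells had in the members' values was not tested. In bulk EV preparations, a change in the number of EVs of one kind and a change in their content cannot be told apart.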

How the data were processed

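The authors trimmed reads with cutadapt (1.11), collapsed reads with the same unique molecular identifier, mapped them with Bowtie2 (2.2.2) to the bovine genome UMD3.1 and to miRBase, normalized the counts by TMM in edgeR and deposited one signal value per miRNA and library, the normalized read count. In each library 100% of the deposited values came out as multiples of the lowest nonzero one (within 0.001), which was taken as 1 read. The totals of these recovered reads exceed the study's numbers of reads mapped to annotated miRNAs, for a reason not tested, so that they may not be counts of independent reads. limma (3.58.1, R 4.3.3) was fitted to all 512 miRNAs on log2(normalized count + 1), without a filter or a block, with Benjamini-Hochberg adjustment over all of them. This scale understates the change of miRNAs with few reads. Ratios within a library were compared by an exact permutation test of the 10 ways to split 6 libraries evenly. The intervals and the limit of 3 reads cover counting error only.

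Alternatives were other scalings, pseudocounts 0.5 and 5, a filter, the replicate number as a block, limma's trend, edgeR (4.0.16), DESeq2 (1.42.0) and leaving out each library. Correlations without HS-EVs replicate 1 were added after seeing the data. The members, the lists of p53-linked, hypoxia-linked, senescence-linked, granulosa, blood cell, serum, epithelial and multiciliated cell (other miR-449) miRNAs, and the tests were chosen with earlier results of these data known. The miRNAs named are the members, the markers, bta-miR-361, bta-miR-1246, list miRNAs past the threshold or without overlap, and for each member with 10 or more reads in at least 3 libraries the 3 most correlated miRNAs. bta-miR-145, bta-miR-107, bta-miR-26a and bta-miR-26b were named after their values were seen. Gene neighbours came from RefSeq genes of ARS-UCD2.0, not the authors' assembly, so no positions are given.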

Additional observations from a re-analysis of the deposited data

How the results depend on the processing

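Scaling by all reads turned the direction of 4 members, to -1.01 for bta-miR-34a, -0.72 for bta-miR-449a, -0.90 for bta-miR-22-3p and -1.01 for bta-miR-210, and moved the median of all 512 miRNAs from 0.01 to -0.79. The combination of this scaling with leaving out HS-EVs replicate 1 was chosen after seeing the data and turned them back. When single libraries were left out, log2 fold changes ranged between 0.19 and 0.86 for bta-miR-34a, 0.24 and 1.22 for bta-miR-449a, 0.47 and 0.73 for bta-miR-22-3p, 0.22 and 0.70 for bta-miR-210, and -1.07 and 0.26 for bta-miR-22-5p, which was lowest without HS-EVs replicate 1 and above 0 without HS-EVs replicate 2 (0.26) and without HS-EVs replicate 3 (0.10). The same ranges were 0.30 (without HS-EVs replicate 2) to 1.75 (without HS-EVs replicate 1) for the ratio of the miR-22 arms, -0.45 to 0.081 (without HS-EVs replicate 1) for bta-miR-210 to bta-miR-22-3p and, relative to bta-miR-361, 0.56 to 1.20 for bta-miR-34a, 0.90 to 1.56 for bta-miR-449a, 0.71 to 1.27 for bta-miR-22-3p and 0.51 to 1.26 for bta-miR-210. Members detected stayed at 4 in each group under every alternative run. No member passed the threshold under any alternative, and the members' adjusted p-values lay between 0.517 and 1. Over all 512 miRNAs, the number past the threshold was 0 in the reported fit, 1 with a pseudocount of 0.5, 2 with limma's trend and 3 with edgeR's quasi-likelihood test, and 0 to 4 with each library left out (4 without control-EVs replicate 2, 2 without HS-EVs replicate 1, 3 without HS-EVs replicate 2). With the replicate number as a block it was 0, and bta-miR-22-3p had a log2 fold change of 0.61 with an adjusted p-value of 0.835 from limma. The correlation of the deviations within same-numbered pairs was 0.14, 0.14 and 0.08, so that the numbers were not taken as pairs. Exact sign flips over same-numbered pairs, where 0.25 is the smallest p, gave 0.25 for bta-miR-22-3p relative to bta-miR-361. The low depth outside bta-miR-1246 limits bta-miR-34b, bta-miR-34c and bta-miR-22-5p most. The filter on a mean normalized count of 10 removed bta-miR-22-5p, so that it has no value there. The cause of these shifts was not tested.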
